A study of Homo sapiens with 4 samples.

Results

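Genes of protein folding in the endoplasmic reticulum (ER) and of the unfolded protein response, 10 of 60279 in the human count table, were followed in newly made RNA of K562 cells. They were HSPA5, HSP90B1, XBP1, CALR, CANX, PDIA3, PDIA4, PDIA6, SEL1L and DNAJB9, chosen by name and matched by gene symbol. K562 is a long-established cell line from a chronic myeloid leukaemia and carries the BCR-ABL1 fusion. Cells were given 1 mM 4-thiouridine, a uridine analogue that living cells build into RNA, for 5 min in one group and 15 min in the other, each with 2 libraries, and neither group had a further treatment. In this assay, transient transcriptome sequencing (TT-seq), 15 µg of Drosophila S2 RNA was added to 150 µg of total RNA, the RNA was sheared, and fragments carrying the thiol group were biotinylated and captured on streptavidin beads.

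The ER is where secreted and membrane proteins enter, fold and receive sugars. Chaperones hold nascent chains in solution, lectin chaperones read their sugar tags, disulfide isomerases join and exchange cysteine bonds, and chains that fail are passed back to the cytosol for degradation. When unfolded proteins build up, sensors in the ER membrane (IRE1, PERK and ATF6) switch on the unfolded protein response, which raises transcription of most of the genes described here. IRE1 acts by cutting a short intron out of the XBP1 mRNA so that it encodes an active transcription factor, and ATF6 binds promoters together with NF-Y at a sequence called the ER stress response element (ERSE). Plasma cells and the exocrine pancreas, which secrete much protein, are known for high levels of these genes.

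The promoters are shown first because the ERSE is the one sequence that several of these genes share. RefSeq windows of GRCh38.p14, from 250 bases before to 50 bases after a gene's start, were found for 9 of the 10 genes, PDIA3 being the one with no window. The ERSE was searched on both strands as CCAAT, then 9 bases of any kind, then CCACG. It occurred in 6 of these genes, HSPA5, HSP90B1, XBP1, CALR, CANX and PDIA6. Over all genes with a window, 25 of 27305 held it (0.0916% of genes and 0.0769% of 35116 windows). The element was defined in promoters of this kind, so its presence here describes the genes and is no finding of these libraries. In the lines below, each written 5′ to 3′ in the direction in which CCAAT comes first, capitals mark the fixed letters of the ERSE and 5 flanking bases stand on either side.
HSPA5, chr9:125241386-125241414, minus strand: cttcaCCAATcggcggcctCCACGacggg
HSP90B1, chr12:103930211-103930239, plus strand: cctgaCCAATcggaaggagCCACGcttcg
HSP90B1, chr12:103930316-103930344, minus strand: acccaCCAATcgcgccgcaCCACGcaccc
XBP1, chr22:28800598-28800626, minus strand: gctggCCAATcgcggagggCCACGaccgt
CALR, chr19:12938379-12938407, minus strand: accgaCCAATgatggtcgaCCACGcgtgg
CANX, chr5:179698773-179698801, plus strand: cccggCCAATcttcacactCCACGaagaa
PDIA6, chr2:10812848-10812876, minus strand: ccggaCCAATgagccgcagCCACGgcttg

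HSP90B1 held 2 copies, on opposite strands, and the CALR copy ran against the direction of its gene. The HSPA5 copy began 66 bases before the RefSeq start and the XBP1 copy 52 bases before it. PDIA4, SEL1L and DNAJB9 had windows with no exact match, which says only that these letters are not there. Matches to ERSE-II (ATTGG, 1 base of any kind, then CCACG) and to the UPRE (TGACGTGG), searched on both strands, were in none of the 9 genes and in 0.0696% and 0.927% of all genes. The 250 bases before the HSPA5 start (chr9:125241344-125241593, minus strand) are printed because HSPA5 had the highest deposited synthesis rate of the group, and capitals again mark the ERSE.
HSPA5 upstream: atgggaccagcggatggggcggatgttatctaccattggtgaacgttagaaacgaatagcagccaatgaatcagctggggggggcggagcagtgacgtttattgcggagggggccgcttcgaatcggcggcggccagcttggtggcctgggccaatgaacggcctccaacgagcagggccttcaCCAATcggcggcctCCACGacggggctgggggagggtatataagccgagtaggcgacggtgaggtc

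The human counts summed to 4339981 to 5051370 reads per library and the fly counts to 308978 to 897018. The libraries of 15 min held 15.6 ± 0.391 human reads per fly read and those of 5 min 5.34 ± 0.709 (mean ± SD, n = 2 each). Whether libraries of the same label time came from separate cultures is stated nowhere in the labels, so the p-values rest on a spread between libraries that may be technical only. All 12 erythroid and leukaemia genes that mark K562 had reads, with a summed level of 3218 to 3401 reads per 1000000 human reads after 5 min and 2619 to 2655 after 15 min. Of 11 markers of T cells, B cells, monocytes, fibroblasts and epithelium, 9 had reads, and CD8A and MS4A1 were at 0. Reads of 3 of them, CD3D, CSF1R and EPCAM, were enough to pass the count filter. The summed level of the 11 was 86.7 to 86.9 after 5 min and 64.7 to 65.5 after 15 min. The part of either marker list in the results below was not tested.

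Of the 10 genes, 9 had ample reads and XBP1 had 0 reads in all 4 libraries. XBP1 lies on the minus strand of chromosome 22 (28794555 to 28800597, GENCODE 29 on GRCh38, the build named in the submitters' notes) with 6 exonic blocks and no annotated gene overlapping it. It has no entry in the deposited table of synthesis rates either. A count of 0 allows up to 3 reads, which is 0.594 to 0.691 reads per 1000000 human reads in these libraries, counting error only. Whether a step of the counting or of the annotation removed reads of XBP1 cannot be settled from the deposited tables, so this limit is one on counted reads and not on XBP1 RNA. Its nearest coding neighbours did have reads. CCDC117, 5.25 kb away, had 31 and 35 reads after 5 min and 40 and 33 after 15 min, and CHEK2, on the same strand, had 129 and 143 and then 97 and 97. XBP1P1, a processed pseudogene of XBP1 on chromosome 5 named here after its values were seen, had 36 and 29 reads after 5 min and 60 and 48 after 15 min. Of 19657 coding genes in the table, 4098 (20.8%) were at 0 in every library, against 0 of 115 other genes of the ER pathway and 0 of 57 cytosolic chaperone and proteasome genes. No fold can be given for XBP1, and the other results are about the remaining 9 genes. Counts per gene could not in any case tell the spliced from the unspliced XBP1 mRNA.

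Relative to the fly reads, labelled RNA of all 9 genes was higher after 15 min than after 5 min. Of the 17322 tested genes 98.4% were higher and 0.0115% lower, and in 99% both 15 min libraries lay above both 5 min libraries, as they did in all 9 here, so these counts are no result about these genes. What varied was the size of the rise. Labelled RNA of DNAJB9 rose 3.84-fold, that of HSPA5 2.68-fold and that of SEL1L 2.33-fold, and the other 6 genes rose 1.54- to 1.88-fold, where the label times themselves differed by a ratio of 3. The median fold of the 9 genes was 1.86. It was 3.20 for all tested genes, 2.96 for 11547 coding genes and 2.79 for the 4226 coding genes at or above the level of the lowest of the 9. Only DNAJB9 lay above 3-fold, as did 47.8% of coding genes.

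The values below are reads of a gene per 1000 fly reads of the same library, a level of labelled RNA relative to a fixed mass of total RNA (more cells with a transcript and more of it per cell cannot be told apart), with the 5 min libraries first and replicates 1 and 2 in that order. Among the chaperones, HSPA5 (BiP, the ER Hsp70 that binds unfolded chains and holds the stress sensors inactive) had 2.73 and 3.14, then 7.94 and 7.81. The 15 min libraries stood well clear of both 5 min libraries. HSP90B1 (GRP94, the ER member of the Hsp90 family) had 2.88 and 3.75, then 6.10 and 6.22. CALR, the soluble lectin chaperone calreticulin, which also binds calcium, had 1.66 and 2.12, then 3.55 and 3.55. In both genes the 5 min libraries differed from each other more than the 15 min libraries did, and the label times did not overlap.

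CANX, the membrane-bound lectin chaperone calnexin, had 4.23 and 5.53, then 7.50 and 7.85. Its 5 min libraries lay further apart than its 15 min libraries, and the label times did not overlap. PDIA3 (ERp57, the disulfide isomerase that works with both lectin chaperones) had 0.963 and 1.25, then 1.87 and 1.88. PDIA4 (ERp72) had 0.829 and 1.10, then 1.42 and 1.62, and PDIA6 (P5) had 0.555 and 0.647, then 0.863 and 0.990. These isomerases carry thioredoxin domains that form and exchange disulfide bonds. For all 3 the label times did not overlap, but the higher 5 min library came within 1.29-fold of the lower 15 min library in PDIA4 and within 1.33-fold in PDIA6.

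SEL1L, the scaffold of the HRD1 ubiquitin ligase complex that sends misfolded proteins out of the ER for degradation, had 0.324 and 0.402, then 0.828 and 0.861. DNAJB9 (ERdj4, a J-domain co-chaperone that recruits BiP to IRE1 and to misfolded chains) had 0.389 and 0.428, then 1.66 and 1.47. Each 15 min library of DNAJB9 was at least 3.44-fold above each 5 min library, and the 4 pairings of libraries ran to 4.27-fold. For PDIA4 and CANX the same pairings gave 1.29- to 1.96-fold and 1.36- to 1.86-fold, which do not meet the range of DNAJB9.

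**Figure D1:**
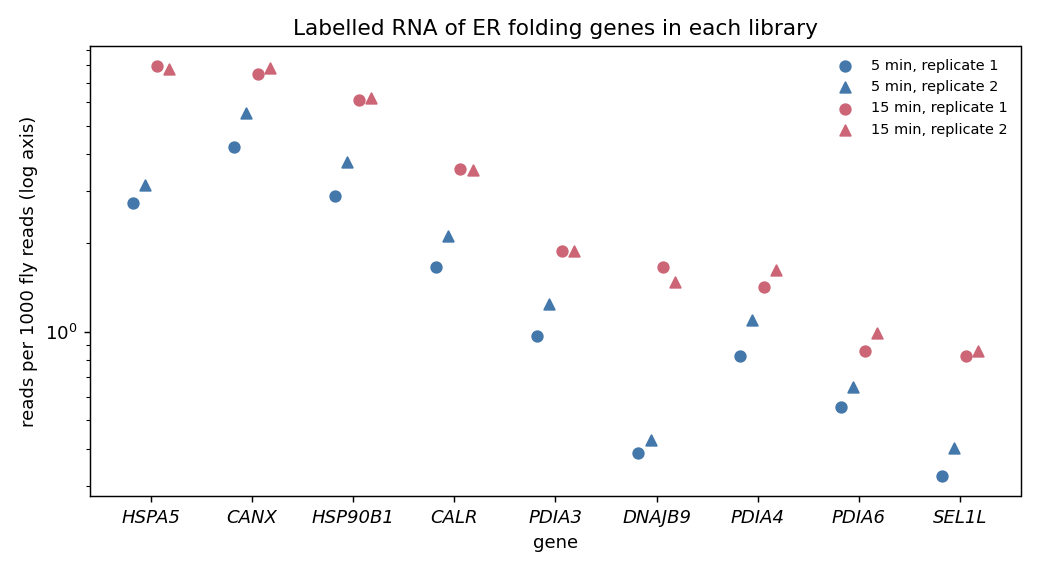
Reads of each gene per 1000 fly reads (log axis) in the 4 libraries, with 5 min in blue, 15 min in red and 1 marker shape per replicate number; XBP1, at 0 throughout, is left out. Levels are not per length, so heights should be compared within a gene: all 9 genes were higher in both 15 min libraries, with the widest step for DNAJB9 (0.389 and 0.428 to 1.66 and 1.47) and narrow ones for CANX and PDIA4.

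The test was edgeR's quasi-likelihood test with library sizes set to the fly totals and Benjamini-Hochberg adjustment over all tested genes. The log2 fold change was 1.94 ± 0.172 for DNAJB9 (SE, adjusted p = 3.41e-28), 1.42 ± 0.173 for HSPA5 (adjusted p = 6.02e-16) and 1.22 ± 0.174 for SEL1L (adjusted p = 5.14e-12). It was 0.91 ± 0.167 for CALR, 0.89 ± 0.17 for HSP90B1, 0.77 ± 0.165 for PDIA3 and 0.66 ± 0.166 for PDIA4. The smallest values were 0.65 ± 0.172 for CANX (adjusted p = 0.000167) and 0.63 ± 0.169 for PDIA6 (adjusted p = 0.000246). The SE of each of the 9 genes was larger here than on the share scale described further on, and the fly totals, with any error they carry, are common to all genes. Leaving out replicate 2 of the 15 min group ended the calls of CANX (0.62, adjusted p = 0.081), PDIA4 (0.55, adjusted p = 0.0897) and PDIA6 (0.52, adjusted p = 0.107), and leaving out replicate 1 of that group ended that of CANX (0.69, adjusted p = 0.0564).

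Among all tested genes, PDIA6, CANX, PDIA4 and PDIA3 lay between percentiles 1.88 and 3.22 of the fold and HSP90B1 and CALR at 5.15 and 5.59. SEL1L was at percentile 16.3, HSPA5 at 28.9 and DNAJB9 at 70.8. The genes are thus spread from the low tail to the upper part of the distribution.

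**Figure D2:**
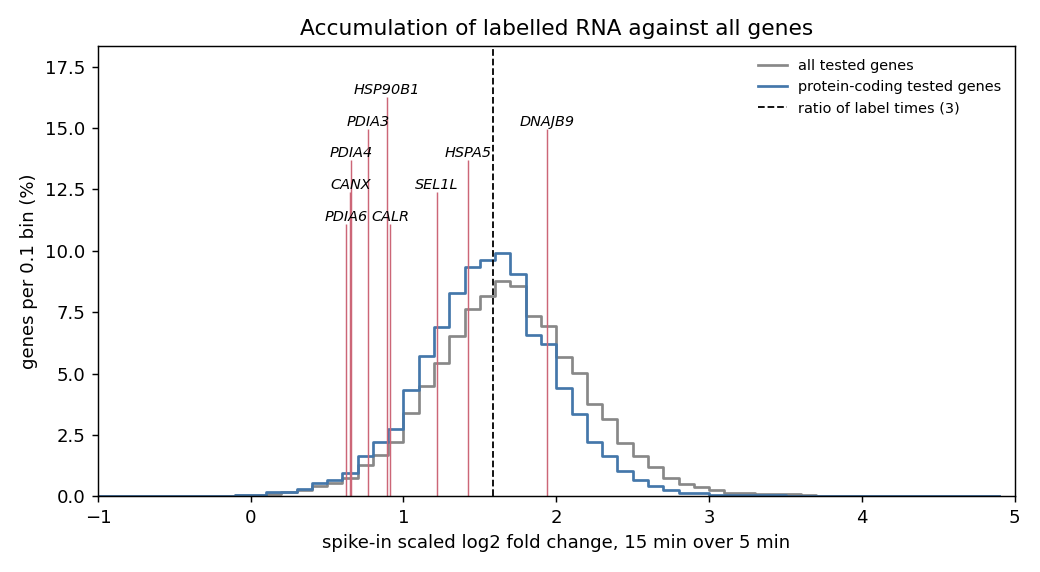
Distribution of the spike-in scaled log2 fold change, 15 min over 5 min, over 17322 tested genes (grey) and 11547 coding genes (blue), as percent of genes per bin, with the 9 genes as red lines; the dashed line marks the ratio of the label times, 3. The height of a red line only separates the names. The 6 lowest genes stand in the low tail between 1.54- and 1.88-fold, SEL1L and HSPA5 nearer the middle, and DNAJB9 to the right of the dashed line.

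Scaling libraries to their human reads, with TMM factors, takes out the common rise and leaves each gene's share of the labelled RNA, given as CPM, reads per 1000000 scaled human reads. The share of 8 of the 9 genes fell between 5 and 15 min and that of DNAJB9 rose, where 21.3% of all tested genes fell and 16.8% rose. Coding genes at or above the lowest level of the 9 fell in 48.1% of cases and rose in 14.7%. The median log2 fold change was -0.75 for the 9 genes, 0.03 for all tested genes, -0.08 for coding genes and -0.17 for coding genes of that level. The summed reads of the 10 genes made up 0.308% ± 0.00936 of a 5 min library and 0.206% ± 0.00755 of a 15 min library, of human reads (SD, n = 2 for each time). For 8 genes both 15 min libraries lay below both 5 min libraries, as for 33% of tested genes, and for DNAJB9 both lay above, as for 34.6%.

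The lectin chaperones both fell. CANX had 907 and 996 CPM after 5 min and 461 and 498 after 15 min. On the log2 scale CANX fell by 0.99 ± 0.0609 (SE, edgeR, adjusted p = 2.09e-56). Calreticulin, its soluble relative, had 356 and 381 and then 218 and 225 CPM, which gave a log2 fold change of -0.73 ± 0.0623 (edgeR, adjusted p = 5.24e-30). Neither gene's libraries overlapped between label times.

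The disulfide isomerases fell by similar amounts. PDIA6 had 119 and 116 CPM after 5 min and 53.0 and 62.8 after 15 min (log2 fold change -1.02 ± 0.0862 SE). PDIA4 had 178 and 198 and then 86.9 and 103 CPM (-0.99 ± 0.0734). PDIA3 had 206 and 224 and then 115 and 119 CPM (-0.88 ± 0.0698). All 3 had adjusted p-values of 1.45e-30 or smaller in edgeR's quasi-likelihood test. The counts of PDIA6 and PDIA3 are uncertain in part, since genes on the other strand share exonic bases with them and no source used here gives the strand setting of the counting. ATP6V1C2 shares 25.2% of the exonic bases of PDIA6 and had 85 and 88 reads after 5 min and 134 and 116 after 15 min. ELL3 shares 14.8% of those of PDIA3 and had 1 and 2 and then 9 and 2 reads. CATSPER2P1, a pseudogene, shares 4.15% of those of PDIA3 and had 42 and 29 and then 63 and 64 reads. AC018512.1 shares 14.3% of those of PDIA3 and had 0 reads. PDIA3P1, a processed pseudogene of PDIA3, had at most 7 reads.

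The 2 large chaperones parted. HSP90B1 had 617 and 675 CPM after 5 min and 375 and 394 after 15 min, a log2 fold change of -0.75 ± 0.0605 (SE, adjusted p = 3.8e-33). HSPA5 had 585 and 566 and then 488 and 495 CPM, which gave a log2 fold change of -0.23 ± 0.0601 (edgeR, adjusted p = 0.000741). The fall of HSPA5 did not pass when libraries were scaled to total human counts (-0.12, adjusted p = 0.0879), a scaling that moved the median of all tested genes from 0.03 to 0.13. Relative to that median the fall was of like size in both scalings.

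SEL1L had 69.5 and 72.3 CPM after 5 min and 50.9 and 54.6 after 15 min, a log2 fold change of -0.43 ± 0.098 (SE, adjusted p = 7.85e-05). DNAJB9 had 83.3 and 77.0 and then 102 and 93.4 CPM, which gave a log2 fold change of 0.29 ± 0.0841 (edgeR, adjusted p = 0.00264). This rise did not pass on leaving out replicate 1 after 15 min (0.21, adjusted p = 0.127), on leaving out replicate 2 after 5 min (0.22, adjusted p = 0.109) or with DESeq2 (0.27, adjusted p = 0.12), and its highest value over the alternatives was 0.39. THAP5 and PNPLA8, on the other strand, share 6.45% and 3.49% of the exonic bases of DNAJB9. THAP5 had 361 and 350 reads after 5 min and 445 and 420 after 15 min, and its part in the DNAJB9 count was not tested.

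**Figure D3:**
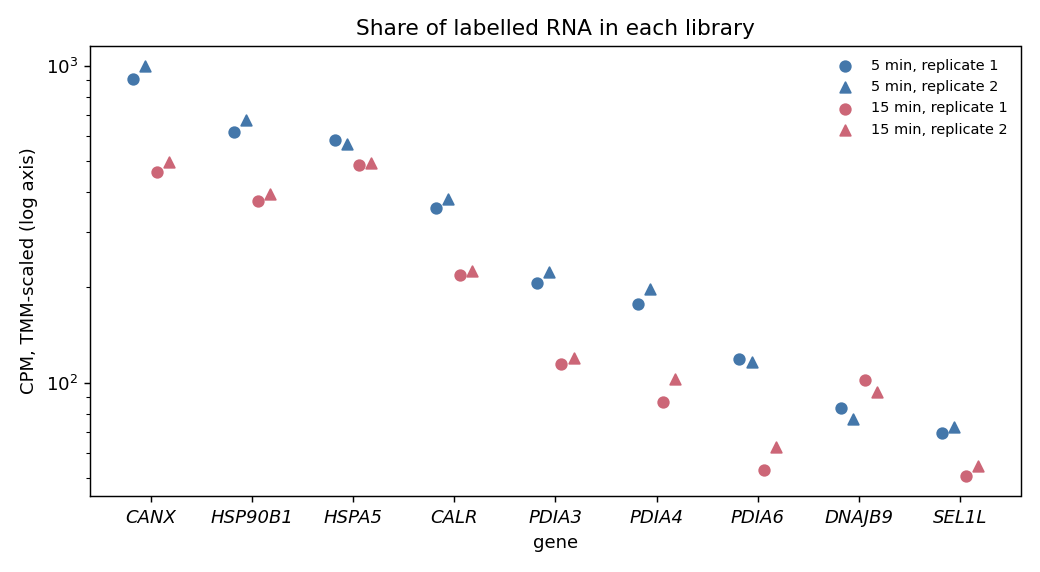
Share of labelled human RNA of each gene (TMM-scaled CPM, log axis) in the 4 libraries, 5 min in blue and 15 min in red, 1 marker shape per replicate number. Both red points lie below both blue points for every gene shown except DNAJB9, where both lie above; the distance is small for HSPA5 (585 and 566 to 488 and 495 CPM) and large for CANX (907 and 996 to 461 and 498 CPM).

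Ordered by the change in share, DNAJB9 stood 0.52 above HSPA5 on the log2 scale with a combined SE of 0.103. SEL1L stood 0.20 below HSPA5 (combined SE 0.115), within 2 combined SE. CALR stood 0.31 below SEL1L (combined SE 0.116). From CALR down through HSP90B1, PDIA3, PDIA4, CANX and PDIA6, no gene differed from its neighbour in the order by more than 2 combined SE, the steps being 0.0032 to 0.13. Of the 15 pairs among these 6 genes, 6 differed by more than 2 combined SE: CALR and HSP90B1 each fell less than PDIA4, CANX and PDIA6. PDIA3 stood between them and differed from none of the 5 by that much. These differences, in units of SE, carry no p-value. Over the alternatives tried, their log2 fold changes stayed between -1.17 and -0.63.

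**Figure D4:**
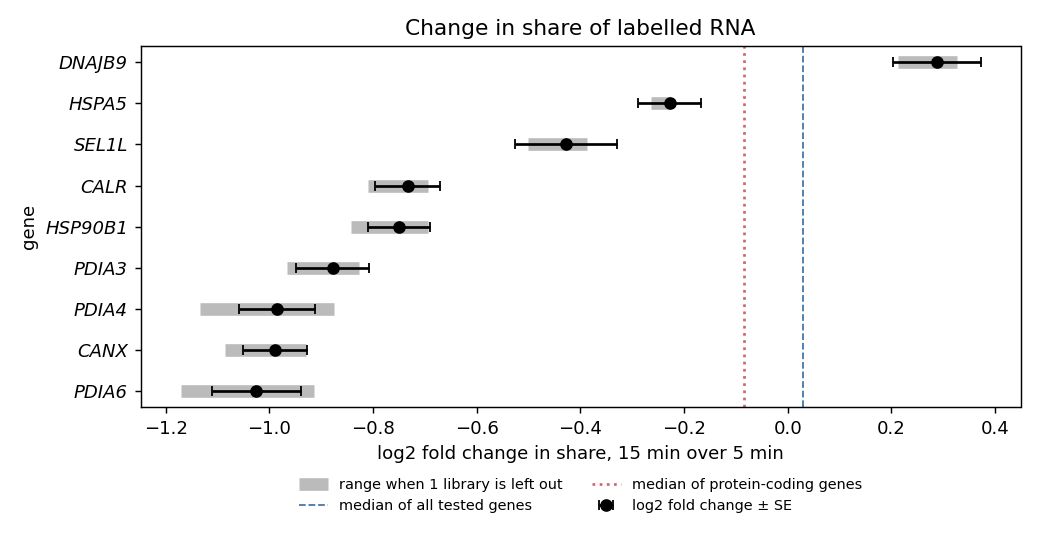
Log2 fold change in share, 15 min over 5 min, for each gene (points, bars are ± 1 SE from the edgeR fit), with the range over the 4 fits that each leave out 1 library (grey) and the medians of all tested genes (dashed, 0.03) and of coding genes (dotted, -0.08). DNAJB9 is the only gene to the right of both medians, and the other 8 lie to the left of both.

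Share changes were set beside the ERSE search, and no test compared genes with and without a match. The 5 tested genes with an ERSE in their window, HSPA5, HSP90B1, CALR, CANX and PDIA6, all fell in share, with a median log2 fold change of -0.75. Of the genes searched without a match, PDIA4 and SEL1L fell and DNAJB9 rose. PDIA3 fell too, but it had no window, so whether it holds an ERSE is unknown. The median of these 4 genes, PDIA3 included, was -0.65. Beyond the group, 9 more genes with the same letters were tested. Over all tested genes 21.3% fell and 16.8% rose, and over coding genes 30.5% fell and 13.7% rose. Of the 9 genes, 4 fell and 2 rose (median -0.14). The 4 were CRELD2, an ER chaperone of the stress response, SERP1, a stabiliser of membrane proteins at the ER, EIF2A and TMEM120A. The 2 were FICD, which attaches AMP to BiP (log2 fold change 0.36, adjusted p = 0.00114), and ZNF17 (0.48, adjusted p = 0.00452). ERO1B (-0.06), ALG12 (0.43) and TRIM5 (-0.14) did not pass, and ERO1B and TRIM5 changed sign on leaving out some libraries. These genes were named from the motif search after their values could be seen. Only the EIF2A and SERP1 calls passed in every alternative. With DESeq2 the calls of CRELD2 (adjusted p = 0.215), TMEM120A (adjusted p = 0.0915), FICD (adjusted p = 0.0842) and ZNF17 (adjusted p = 0.117) did not pass. That of CRELD2 also did not pass in edgeR with total-count scaling (adjusted p = 0.0683). The CRELD2 call (log2 fold change -0.59, adjusted p = 0.0236) did not pass on leaving out either 15 min library or replicate 1 after 5 min (-0.33, adjusted p = 0.403), and that of TMEM120A (-0.73, adjusted p = 0.00206) did not on leaving out replicate 1 after 15 min (-0.47, adjusted p = 0.168). Leaving out replicate 2 after 5 min ended the FICD call (0.26, adjusted p = 0.104) and the ZNF17 call (0.43, adjusted p = 0.0616), and the latter also ended without replicate 1 after 15 min (0.45, adjusted p = 0.0569).

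To set levels between genes side by side, fly-scaled reads were divided by the exonic length of each gene in kb. After 5 min, CANX (0.783 ± 0.147, mean ± SD, n = 2), HSPA5 (0.752 ± 0.0742), HSP90B1 (0.707 ± 0.131) and CALR (0.696 ± 0.118) overlapped in this level. After 15 min HSPA5 stood alone at 2.01 ± 0.0239, above HSP90B1 at 1.31 ± 0.0177 and CALR at 1.31 ± 0.00203, which overlapped, and CANX at 1.23 ± 0.04. PDIA4 and PDIA3 overlapped at both times, at 0.294 ± 0.058 and 0.26 ± 0.047 after 5 min and 0.464 ± 0.0452 and 0.443 ± 0.00227 after 15 min. DNAJB9 moved past both isomerases, from 0.144 ± 0.00968, where it overlapped PDIA6 (0.147 ± 0.0158), to 0.552 ± 0.0467, where it overlapped none. SEL1L had the lowest level of the 9 at both times (0.038 ± 0.00572 and 0.0884 ± 0.00241). No source used here says whether introns were counted. Per kb of the whole GENCODE gene span, HSPA5 and CALR led at both times. On this scale CANX stood behind HSP90B1 at both times and behind DNAJB9 after 15 min. The place of CANX rests on a GENCODE span that begins well upstream of its RefSeq start. A shorter span would raise its level per kb, and the order with a span from the RefSeq start was not tested.

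The genes differ widely in architecture. In GENCODE 29 on GRCh38 the short genes are DNAJB9 at chr7:108569568-108574850 (plus strand, 3 exonic blocks), CALR at chr19:12938578-12944489 (plus strand, 7 exonic blocks) and HSPA5 at chr9:125234853-125241330 (minus strand, 8 exonic blocks). Those of middle length are HSP90B1 at chr12:103930107-103953645 (plus strand, 18 exonic blocks), PDIA4 at chr7:149003062-149028641 (minus strand, 11 exonic blocks) and PDIA3 at chr15:43746392-43773279 (plus strand, 14 exonic blocks). The long ones are CANX at chr5:179678628-179730925 (plus strand, 22 exonic blocks), PDIA6 at chr2:10783391-10837977 (minus strand, 20 exonic blocks) and SEL1L at chr14:81471549-81533861 (minus strand, 21 exonic blocks). DNAJB9, CALR and HSPA5 span 5.28, 5.91 and 6.48 kb, HSP90B1, PDIA4 and PDIA3 span 23.5, 25.6 and 26.9 kb, and CANX, PDIA6 and SEL1L span 52.3, 54.6 and 62.3 kb. The ERSE matches of CANX and PDIA6 lie well inside these spans, which begin upstream of the RefSeq starts used for the promoters. Both matches of HSP90B1 also lie inside its span, close to its beginning. Measured from their RefSeq starts, CANX and PDIA6 would be shorter. Their places among the long genes, their levels per kb of span above and the span values below thus rest on the GENCODE spans. The median share change of coding genes was 0.07 for 2298 genes under 10 kb, -0.07 for 3363 genes of 10 to 30 kb and -0.14 for 5886 longer genes. The 3 shortest genes of the group gave 0.29, -0.73 and -0.23, and the 3 longest -0.99, -1.02 and -0.43. The rank correlation of span with share change over the 9 genes was -0.6, and -0.168 over 11547 coding genes. Both are descriptions, across genes that share libraries and are not independent replicates. CALR, at 5.91 kb, and HSP90B1, at 23.5 kb, gave -0.73 and -0.75. A part of gene length in the share changes was not tested.

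The authors' deposited table gives 1 synthesis rate per gene for the untreated cells, with no error and no stated scale or time unit, so only its order is used. All 9 genes lay above the median of 11777 genes and 7 above the upper quartile. HSPA5, at 0.307, ranked 103rd, CALR (0.187) 175th, HSP90B1 (0.124) 278th and CANX (0.0817) 512th. DNAJB9 (0.0699) ranked 675th, ahead of PDIA4 (0.0494, 1180th) and PDIA3 (0.0493, 1184th). PDIA6 (0.0222) ranked 3471st and SEL1L (0.0123) 5604th. Over the 9 genes the rate and the 15 min level per exonic kb had a rank correlation of 0.983, and over 10737 tested genes 0.886. No source used here names the libraries behind the rates, which may be these. The rank correlation of rates with share changes over the 9 genes was 0.333, and DNAJB9 and CANX, not far apart in rate, changed in opposite directions. A part of the rate in the share changes was not tested.

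Of the other genes of the pathway, in lists of 115 genes that were all tested, 64 fell in share and 14 rose, with a median log2 fold change of -0.28. Over all tested genes 21.3% fell and 16.8% rose, and over coding genes at or above the lowest level of the 9, 48.1% fell and 14.7% rose. The 14 became 6 with DESeq2, 9 on leaving out replicate 1 after 15 min and 8 on leaving out replicate 2 after 5 min. The 64 became 49 with DESeq2 and 53 with total-count scaling. Labelled RNA of all 115 rose relative to the fly reads, as that of 98.4% of tested genes did, with a median fold of 2.58. List medians ran from 0.14 for the stress sensors and factors to -0.64 for the N-glycan cycle, a difference that was not tested.

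Among 13 sensors and factors of the stress response, 6 rose in share and 1 fell, with a median of 0.14. PPP1R15A (GADD34), which restores translation by dephosphorylating eIF2, rose from 205 ± 10.1 to 375 ± 12.1 CPM (mean ± SD, 2 libraries a time), a log2 fold change of 0.88 ± 0.0631 (SE, adjusted p = 1.79e-41). ATF4, the transcription factor made when eIF2 is phosphorylated, rose by 0.46 on the log2 scale and PPP1R15B, the constitutive partner of the same phosphatase, by 0.44. ATF6, the sensor that acts on the ERSE, fell from 128 ± 5.94 to 98.3 ± 3.54 CPM (log2 fold change -0.38 ± 0.077, adjusted p = 6.11e-06).

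Of 16 other ER chaperones and co-chaperones 8 fell and 1 rose, with a median of -0.23. The number that fell is near the 48.1% among coding genes at or above the lowest level of the 9, of which 14.7% rose. HYOU1, a nucleotide exchange factor of BiP, fell by 0.47, SEC63, its J-domain partner at the translocon, by 0.27 and SDF2L1, a partner of the BiP co-chaperone ERdj3, by 0.62 on the log2 scale. The SEC63 call ended on leaving out replicate 1 after 15 min (log2 fold change -0.19, adjusted p = 0.0959). The member that rose, SDF2 (0.26, adjusted p = 0.0441), passed in 3 of 9 alternatives. Of 15 disulfide enzymes 10 fell and 2 rose (median -0.40), beside the same 48.1% and 14.7%. P4HB, the founding disulfide isomerase, fell from 218 ± 11.5 to 128 ± 5.99 CPM (log2 fold change -0.77 ± 0.0688) and TMX2, a membrane relative, by 0.40, while TXNDC5 rose by 0.71 (adjusted p = 4.6e-06).

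N-glycan transfer and trimming, which feeds the calnexin and calreticulin cycle, had 14 of 18 genes lower and 0 higher, with a median of -0.64, the highest of the 18 being 0.06. GANAB, the catalytic subunit of glucosidase II, which trims glucose before and after binding to calnexin, fell from 312 ± 16.7 to 160 ± 4.89 CPM (log2 fold change -0.96 ± 0.0651, adjusted p = 3.62e-47). STT3A, a catalytic subunit of oligosaccharyltransferase, fell by 0.39. All 4 genes of a list of receptors that cycle between ER and Golgi fell (median -0.61), KDELR1 by 0.87, KDELR2 by 0.67 and SURF4 by 0.56. KDELR1 and KDELR2 return ER proteins from the Golgi by binding the C-terminal signal that several of the chaperones above carry.

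Among 23 genes of protein entry into the ER, 15 fell and 1 rose (median -0.28). SSR1 and SSR3, subunits of the translocon-associated complex, fell by 0.80 and 0.47, and SPCS3, a signal peptidase subunit, by 0.40. SEC61A2, a minor form of the channel subunit, rose by 0.55 (adjusted p = 0.00865), but did not pass on leaving out replicate 1 after 15 min (0.49, adjusted p = 0.0996), on leaving out replicate 2 after 5 min (0.52, adjusted p = 0.0721) or with DESeq2 (0.54, adjusted p = 0.156). Of 26 genes of ER-associated degradation, the route that SEL1L serves, 12 fell and 4 rose (median -0.19). VCP, the ATPase that pulls chains out of the ER, fell by 0.44, and its cofactor UFD1 rose by 0.36 (adjusted p = 4.08e-08).

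For comparison, 17 of 26 cytosolic heat shock chaperones fell and 5 rose (median -0.42), and 23 of 31 proteasome subunits fell and 2 rose (median -0.46). Coding genes at or above the lowest level of the 9 fell in 48.1% of cases and rose in 14.7%. The median of the 9 ER genes was lower than the medians of both lists, a difference that was not tested. The range of the 9, -1.02 to 0.29, lay within that of the cytosolic chaperones (-1.07 to 0.37).

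**Figure D5:**
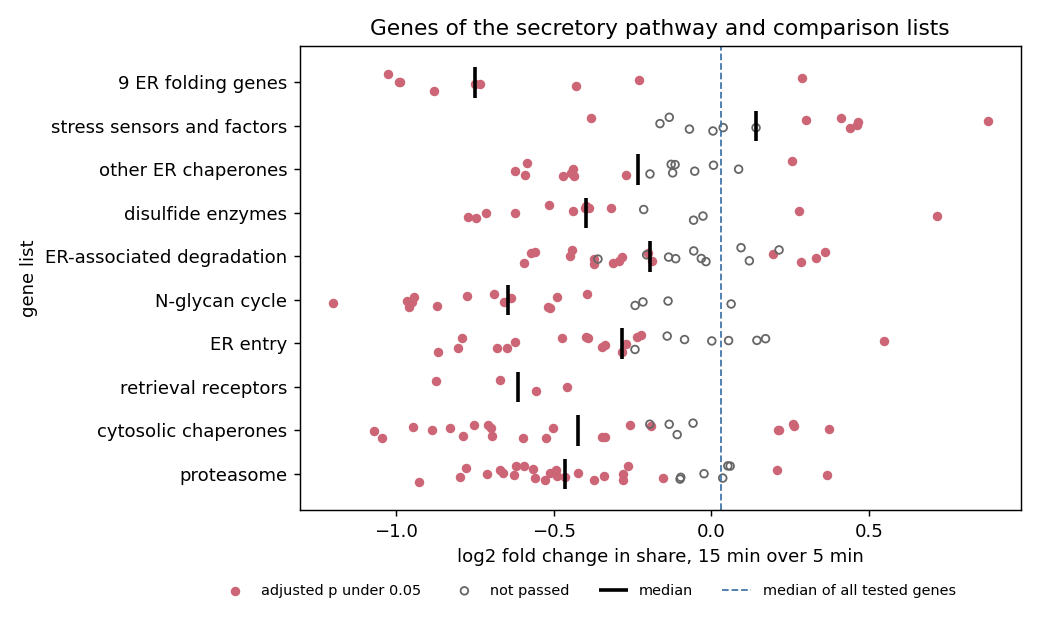
Log2 fold change in share, 15 min over 5 min, of each tested gene (points, filled red where the adjusted p was under 0.05 and open where it was not) in the 9 ER genes, 7 lists of the secretory pathway and 2 comparison lists, with list medians (black) and the median of all tested genes (dashed). Points are spread vertically only to separate them. The medians run from -0.75 for the 9 genes and -0.64 for the N-glycan cycle to 0.14 for the stress sensors and factors.

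The genes whose pattern over the 4 libraries was most like that of HSPA5 were NUMB, CD47 and KLF3, at distances of 0.0103, 0.0127 and 0.0143 between centred log2 fly-scaled values, out of 6961 genes whose log2 CPM averaged 5 or more. As many as 473 genes lay within 0.1, so 4 libraries single out no gene in this way.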

How the data were processed

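For 4 TT-seq libraries the authors deposited tables of raw counts, 1 for human genes and 1 for fly genes, with 1 column per library, and 1 synthesis rate per gene, used as a score because the authors state no scale. Tools named in the submitters' processing notes are STAR 2.7, bcl2fastq 2.17.1.14, edgeR and featureCounts (Subread 2.0.1), and the builds are hg38 and dm6. No source used here gives the strand setting or the feature counted. No molecular identifiers are given, so limits on counts cover counting error only.

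Counts were tested with edgeR 4.0.16 (filterByExpr minimum count 10, robust quasi-likelihood fit, label time as the only term, Benjamini-Hochberg at 0.05 over 17322 genes), once with TMM factors and once with library sizes set to fly totals. SEs came from the F statistic. Fits were checked on simulated data. Alternatives were DESeq2 1.42.0, total-count scaling, TMM factors from fly genes, no low-count filter, nuclear coding genes, a replicate block and leaving out each library. Positions and exonic lengths came from GENCODE 29 and promoters from RefSeq.

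The 10 genes and all lists were chosen with earlier results of these data known. All 10 genes are named. Of each pathway list, the 2 genes with the highest mean CPM and the gene with the smallest adjusted p in each direction are named. Genes like XBP1 were to be named too, but its counts of 0 give no pattern.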

Additional observations from a re-analysis of the deposited data

How the results depend on the processing

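The count of genes higher on the fly scale was 9, and 6 to 9 when 1 library was left out (8 without replicate 1 and 6 without replicate 2 of the 15 min group). In share, 8 genes fell in every fit that left out 1 library, while the count that rose was 1, or 0 to 1 when 1 library was left out and 0 with DESeq2. Of the 115 pathway genes, 14 rose, with 6 rising under DESeq2 and 8 to 10 when 1 library was left out (9 on leaving out replicate 1 after 15 min, 8 on leaving out replicate 2 after 5 min), and 64 fell, with 56 to 59 when 1 library was left out. The 64 that fell became 49 with DESeq2, 53 with total-count scaling and 55 with nuclear coding genes. They became 63 with no low-count filter and 65 with a replicate block. With total-count scaling 7 of the 9 genes fell in share, in place of 8. The cause of these changes was not tested. Of the log2 fold changes recomputed for the 9 genes, the named pathway genes and the tested genes with an ERSE, 30 lost their call, 572 kept direction and side of the threshold, and 6 reversed. The ERSE genes outside the group were added to these alternatives after seeing the data. The reversals were all of genes that had not passed, ERO1B (-0.06 as reported, 0.0484 with total-count scaling, 0.0365 with nuclear coding genes, and -0.214 to 0.069 when 1 library was left out) and TRIM5 (-0.14 as reported, and -0.417 to 0.124 when 1 library was left out). The labels do not say that a replicate number marks a shared culture or day. The correlation of the replicate difference between label times was 0.0487 over all tested genes and 0.124 over 6970 genes with log2 CPM averaging 5 or more, from 2 pairs only. With a replicate block 9 genes rose on the fly scale, and in share 8 fell and 1 rose. Over all tested genes the block gave 3080 higher and 3878 lower, against 2915 and 3692. Total-count scaling gave 4253 higher and 2792 lower, so 60.4% of calls were higher in place of 44.1%, and DESeq2 gave 923 and 2370. With 2 libraries a label time, the spread of a gene rests partly on the fit over all genes.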
